A study of Mus musculus with 12 samples.

Results

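The genes described here encode the intermediate filament proteins of neural cells, the linker plectin and the lamins of the nuclear envelope: Nes, Vim, Gfap, Plec, Nefl, Nefm, Nefh, Ina, Lmna and Lmnb1. They are 10 of the 22609 genes for which reads were counted, and all 10 were found by symbol both in the counts and in the table of FPKM values. Plec and Gfap were chosen by their levels per library over T0 to T3, a pattern noted in these same libraries, so their values are given as a description with no p-value. The other 8 were listed for what they encode, but with earlier results of these data known, so their p-values are not independent evidence. ANS cells are mouse neural progenitors that grow as an attached layer, here derived from normal brain at E14.5. RNAseq libraries were made from proliferating cells in growth medium with 20 ng/ml FGF2 and 20 ng/ml EGF (T0, n = 3), 2 days after the change to medium D1 with 10 ng/ml FGF2 and 2 ng/ml EGF (T1, n = 3), 2 days after the change to medium B with 10 ng/ml FGF2 and 20 ng/ml BDNF (T2, n = 4) and 10 days after that change (T3, labelled GAD+, n = 2). By their labels the T3 libraries are numbered 1 and 4, but the names of the data for number 4 hold a 2 as well. The T3 days are counted here from the change to medium B, as in the labels, whereas the study's text counts them from T2. All are cultures of this 1 kind of cell, with no genetic change given in the labels, so time, medium and replating cannot be told apart.

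Intermediate filaments are rope-like polymers whose subunits differ between cell types. Nestin and vimentin are the classical filaments of dividing neural progenitors, and nestin needs a partner such as vimentin to polymerise. GFAP is the filament protein of astrocytes and of many adult neural stem cells. Neurons build their axonal filaments from the neurofilament triplet (the light, medium and heavy chains encoded by Nefl, Nefm and Nefh), preceded in young neurons by α-internexin, encoded by Ina. Plectin ties filaments to each other, to actin and to the nuclear envelope. Inside the nucleus, lamins A and C, both made from Lmna, and lamin B1, made from Lmnb1, form the meshwork under the inner membrane.

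The 12 libraries held 8910724 to 16631614 counts on genes. Within a gene, levels are in CPM, which scales each count by library size and TMM factor. Where different genes are compared, they are in FPKM, which also divides by transcript length. T0 replicate 3 stood apart from the other T0 libraries: of 12237 genes, 2030 (16.6%) differed more than 2-fold between it and the mean of replicates 1 and 2, against 61 (0.498%) between replicates 1 and 2. Results against T0 are therefore also given without it where that changed a call or moved a fold by over 1.5 times. The 5 proliferation markers summed to 1308 to 2056 CPM in T0 libraries, 96.5 to 203 in T1, 129 to 263 in T2 and 418 and 738 in the T3 libraries. The summed CPM of 10 neuron markers was 902 to 966 at T0 and 1703 to 2710 at T1, T2 and T3, most of it from Mtap2 alone (880 to 917 CPM at T0). Of the 6 neuron markers tested at T1, 5 were called higher, among them Dcx, Gad1 and Tubb3, where 15.1% of all genes were called higher. Elavl4 was called lower (4.99 ± 2.69 CPM at T0 and 1.89 ± 0.39 at T1, SD, n = 3 each). At T2, 6 of 7 were called higher and 0 lower, where 21.4% of all genes were called higher. Stmn2, a marker of growing axons, had no more than 1 count. The 10 oligodendrocyte markers summed to 3512 to 3809 CPM in T0 libraries, 4318 to 4942 in T1 and T2 and 5346 and 6299 in T3. Within that list Olig1 alone was at 2246 ± 59 CPM at T0 and 2701 ± 69 at T1 (SD, n = 3 each). Pdgfra, a receptor of oligodendrocyte progenitors, went from 20.2 ± 14.4 CPM at T0 to 145 ± 53 at T1, and Sox10 from 2.23 ± 1.37 to 0.38 ± 0.22. Of the 7 oligodendrocyte markers tested at T1, 1 was called higher and 0 lower, where 31.9% of all genes were called. Marker lists of microglia, endothelium and fibroblasts summed to at most 3.04 CPM in each library. These are bulk libraries, so fewer cells of a type and less RNA per cell cannot be told apart.

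On the mouse genome (NCBIM37, the build UCSC names mm9), Nes lies on chromosome 3 from 87775000 to 87784373 on the plus strand and Lmna on the same chromosome from 88285070 to 88313878 on the minus strand. Vim is on chromosome 2 from 13495554 to 13504453 and Ina on chromosome 19 from 47089188 to 47099817, both on the plus strand. Gfap, from 102748650 to 102762226, and Nefh, from 4838757 to 4848067, are both transcribed from the minus strand, on chromosome 11. Plec spans 76001404 to 76063004 on chromosome 15, minus strand, and its 22 annotated coding transcripts were counted as 1 gene. Nefl, from 68701920 to 68707152 on chromosome 14, plus strand, lies within the bounds of Nefm, from 68700647 to 68742903 on the minus strand, and 1108 bases of their annotated exons overlap. The library kit does not mark strand, so reads from that stretch cannot be given to either gene.

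Nes, the progenitor filament, stayed at a high level throughout. Its level was 846 and 960 CPM in T0 replicates 1 and 2 and 1815 CPM in replicate 3, then 1341 to 1409 CPM at T1, 977 to 1157 CPM at T2 and 1011 and 1309 CPM at T3. T0 replicate 3 had the highest Nes level of the 12 libraries and replicate 1 the lowest, so T0 overlapped every later group. The 6 progenitor markers summed to 1422 and 1483 CPM in T0 replicates 1 and 2, 2605 CPM in replicate 3 and 1820 to 2939 CPM later, and their part in the Nes values was not tested. With all T0 libraries the log2 fold changes of T1, T2 and T3 were 0.17 ± 0.29 (SE), -0.20 ± 0.25 and -0.04 ± 0.37, with adjusted p-values of 0.67, 0.53 and 0.96 in the quasi-likelihood test of edgeR. Without T0 replicate 3, Nes was higher at T1, by 0.59 ± 0.10 (edgeR adjusted p = 0.0012), and did not pass at T2 (0.21 ± 0.10, adjusted p = 0.12) or T3 (0.37 ± 0.17, adjusted p = 0.18). All 4 T2 libraries lay below the 3 T1 libraries, a difference of -0.39 ± 0.09 that missed the threshold in edgeR (adjusted p = 0.093) and passed it in DESeq2 (-0.40, adjusted p = 0.00021).

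Vim, whose product is the partner of nestin, was the most abundant filament transcript in every library. Its mean FPKM placed it between rank 20 and rank 30 of 34993 gene identifiers at the 4 time points. The T0 libraries held 3765, 3018 and 3109 CPM of Vim, those of T1 2236, 2175 and 2912, those of T2 2140 to 2293 and those of T3 1990 and 2310. Every later library was below every T0 library. At T2 Vim fell, with a log2 fold change of -0.57 ± 0.12 (edgeR adjusted p = 0.0067), although the call was lost with the replicate number as a block (-0.58 ± 0.16, adjusted p = 0.053). The change at T1, -0.44 ± 0.18, did not pass (adjusted p = 0.096) with all libraries and passed without T0 replicate 3 (-0.49 ± 0.16, adjusted p = 0.030). At T3 it was -0.60 ± 0.20 with an adjusted p of 0.13 in edgeR, and it passed in DESeq2 (adjusted p = 0.040).

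Promoter windows, from 250 bases before to 50 bases after the annotated start, were at hand from RefSeq (GRCm38.p6) for Vim, Nes, Lmna, Gfap and Ina. They were searched on both strands for the TATA-box word TATAA, for the CCAAT box (in 37.41% of promoters) and for the GC-box word GGGCGG. Among these genes only Vim had TATAA, a word found in 24.87% of 32851 promoters, and its window is shown because Vim gave most of the filament transcripts. It comes from chr2:13574269-13574294 on the plus strand, 5′ to 3′, with TATAA in capitals beginning 32 bases before the start.
Vim promoter: ctaacagtgtTATAAaagcagcgccc
Its other match is on the minus strand and overlaps this one, shifted by 1 base. CCAAT occurred 2 times in the Vim window and 1 time in a window of Lmna. GGGCGG, found in 35.66% of promoters, occurred 2 times in the windows of Nes and of Ina and 1 time in a window of Lmna, and the Gfap window had none of the searched words. A match describes these letters and is no measure of binding.

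**Figure D1:**
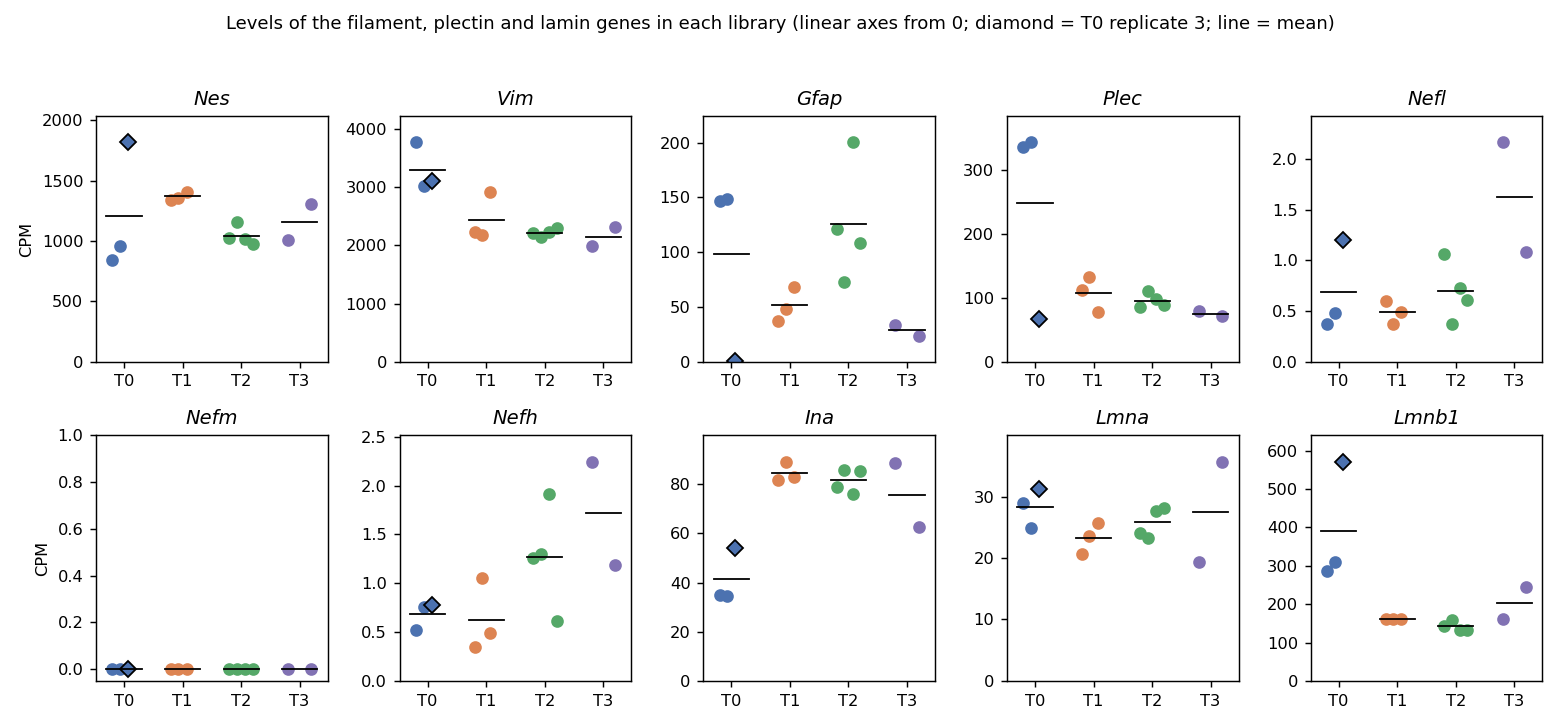
Each panel shows 1 gene with its own linear axis of CPM, each point is 1 library and the line is the mean of its group (T0 n = 3, T1 n = 3, T2 n = 4, T3 n = 2). T0 replicate 3, drawn as a diamond, sits at 0.494 CPM for Gfap and 66.9 CPM for Plec, where replicates 1 and 2 sit at 146 and 148 CPM and at 335 and 342 CPM.

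Gfap, the astrocyte filament, ranged from 0.494 to 200 CPM over the 12 libraries. It was at 146 and 148 CPM (1958 and 2144 counts) in T0 replicates 1 and 2 and at 0.494 CPM (7 counts) in replicate 3, a difference of 298-fold. At T1 the libraries were at 37.2, 48.4 and 68.5 CPM, at T2 at 121, 72.5, 200 and 108 CPM, and at T3 at 33.3 and 23.9 CPM. T0 replicate 3 was the lowest of the 12 libraries. The T2 libraries all lay above the T1 libraries, and the T3 libraries all lay below both. On the log2 scale Gfap differed by 1.29 ± 0.32 (SE) between T2 and T1 and by -2.12 ± 0.38 between T3 and T2. Against T0 the fold changes were -0.95 ± 1.22 at T1, 0.35 ± 1.05 at T2 and -1.77 ± 1.61 at T3. Without T0 replicate 3 they were -1.52 ± 0.20, -0.23 ± 0.30 and -2.35 ± 0.19, so the direction at T2 turned on that library.

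Other astrocyte genes were also low in T0 replicate 3. Aqp4, the water channel of astrocyte endfeet, was at 87.6 and 90.6 CPM in replicates 1 and 2 and at 7.69 CPM in replicate 3. Slc1a2, a glutamate transporter, was at 315 and 328 CPM and at 32.1 CPM. Low levels there were not limited to astrocyte genes. Of the neuron markers, Dcx was at 8.14 and 6.71 CPM and at 1.76 CPM, and Tubb3 at 32.2 and 33.4 CPM and at 10.7 CPM. Mtap2 differed little, at 917 and 892 CPM and at 880 CPM. The 11 astrocyte markers summed to 5891, 5738 and 3521 CPM in the 3 T0 libraries, 4224 to 4767 in T1 libraries, 3692 to 4818 in T2 and 3732 and 3265 in the T3 libraries. Of these markers, 10 were above 3 counts in every library, and Gjb6 was the exception. Their summed ranges overlapped between T1 and T2. Aldoc and Slc1a3 gave most of the sum at T1 (1980 ± 355 and 923 ± 42 CPM, SD, n = 3). Single markers moved in both directions from T0 to T1, with Sox9 at 173 ± 81 and 396 ± 40 CPM and Fgfr3 at 565 ± 293 and 221 ± 38 CPM. Of the 10 tested at T1, 2 were called lower and 1 higher, where 31.9% of all genes were called. The part of cell composition in the Gfap values was not tested.

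Plec, the linker, was at 335 and 342 CPM in T0 replicates 1 and 2 and at 66.9 CPM in replicate 3. It was then at 78.1 to 132 CPM at T1, 85.2 to 110 CPM at T2 and 78.8 and 71.2 CPM at T3. Replicates 1 and 2 of T0 lay above all later libraries, and replicate 3 lay below all of them. With all libraries, the log2 fold changes of T1, T2 and T3 against T0 were -1.22 ± 0.56, -1.37 ± 0.46 and -1.72 ± 0.70, and they were -1.67 ± 0.17, -1.82 ± 0.10 and -2.16 ± 0.12 without T0 replicate 3. Between T2 and T1 it was -0.16 ± 0.16 and between T3 and T2 -0.34 ± 0.13. In T0 replicate 3 the Plec level was 5.06-fold lower than the mean of the other T0 libraries, where Nes was 2.01-fold and Lmnb1 1.91-fold higher, Ina 1.56-fold and Lmna 1.16-fold higher, and Vim at 0.917 of that mean. Other cytolinker genes were also lower in that library. Dst was at 344 CPM there against 717 and 730 CPM in replicates 1 and 2, and Macf1 at 364 CPM against 622 and 658 CPM. Hemidesmosome genes differed from each other there. Itga6 was not lower, at 232 CPM against 228 and 215 CPM. Itgb4 was lower, at 0.918 CPM against 8.14 and 6.50 CPM, as was Cd151, at 129 CPM against 160 and 175 CPM. Plec fold changes against T0 were larger, with smaller errors, without T0 replicate 3.

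The neurofilament triplet was nearly silent. Nefl, the light chain that neurofilaments require to assemble, had 4 to 26 counts per library. Pooled over a group it was at 0.690 CPM at T0 (95% exact Poisson interval 0.462 to 0.991), 0.483 at T1 (0.295 to 0.747), 0.682 at T2 (0.470 to 0.958) and 1.69 at T3 (1.18 to 2.34). These intervals cover counting error only. Nefh, the heavy chain, had 4 to 27 counts per library, and its pooled level was 0.690, 0.628, 1.20 and 1.78 CPM at the 4 time points. Nefm, the medium chain, had 0 counts in all 12 libraries. For 0 counts the upper limit of the same exact Poisson interval was 0.0878 CPM over the T0 libraries, 0.0892 over T1, 0.0763 over T2 and 0.173 over T3. For scale, 3 counts per group would be 0.0714, 0.0725, 0.0620 and 0.141 CPM. In the FPKM table Nefm was at 0.0209 FPKM in T1 replicate 3 and at 0 in the other 11 libraries. If strand was ignored in counting, reads in the stretch it shares with Nefl would be in neither count.

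At T3 both Nefl and Nefh lay higher than at T0 without passing the test. For Nefl the log2 fold change was 1.26 ± 0.65 (edgeR adjusted p = 0.28), and 1.93 ± 0.53 (adjusted p = 0.063) without T0 replicate 3, with 2.16 and 1.08 CPM at T3 against 0.374, 0.484 and 1.20 CPM at T0. For Nefh it was 1.33 ± 0.49 (adjusted p = 0.16), with 2.25 and 1.19 CPM against 0.523 to 0.776 CPM, and the libraries did not overlap. At T2 the values were 0.0042 ± 0.53 for Nefl and 0.85 ± 0.43 for Nefh (adjusted p = 1.0 and 0.14). At these counts, differences of this size did not pass the test.

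Ina, the α-internexin gene, rose at T1 and T2. Its T0 libraries were at 35.0, 34.6 and 54.2 CPM and its T1 libraries at 81.7, 89.3 and 82.9 CPM. At T2 the range was 75.9 to 85.9 CPM, and the T3 libraries were at 88.8 and 62.4 CPM. All later libraries lay above all T0 libraries. The log2 fold change was 1.02 ± 0.19 at T1 (edgeR adjusted p = 0.0089) and 0.99 ± 0.17 at T2 (adjusted p = 0.0025). At T3 it was 0.89 ± 0.27, which missed the threshold (adjusted p = 0.11) and passed it without T0 replicate 3 (1.13 ± 0.20, adjusted p = 0.025). The later steps were small, with -0.05 ± 0.07 between T2 and T1 and -0.10 ± 0.14 between T3 and T2 (adjusted p = 0.86 and 0.79).

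Of the lamin genes, Lmnb1 fell at T1 and T2, and Lmna did not pass the test at any time. For Lmnb1 the T0 libraries were at 288, 311 and 572 CPM and the T1 libraries at 161 to 162 CPM. The T2 libraries followed at 133 to 159 CPM and the T3 libraries at 162 and 245 CPM. All later libraries lay below all T0 libraries. Lmnb1 fell at T1 by 1.28 on the log2 scale (SE 0.26, edgeR adjusted p = 0.012) and at T2 by 1.45 (SE 0.23, adjusted p = 0.0016). Without T0 replicate 3, which had the highest level, the falls were smaller and so were their errors, with -0.90 ± 0.08 at T1 (adjusted p = 2.5e-05) and -1.07 ± 0.09 at T2 (adjusted p = 1.2e-05). The T1 call was lost without T1 replicate 1, 2 or 3 (adjusted p of 0.055, 0.060 and 0.055) at nearly the same fold change. At T3 the change was -0.92 ± 0.37 (adjusted p = 0.18). Both T3 libraries lay above all T2 libraries, and Lmnb1 was higher at T3 than at T2 by 0.52 ± 0.16 (adjusted p = 0.15) with both T3 libraries and by 0.79 ± 0.13 (adjusted p = 0.0082) without T3 replicate 1. The summed proliferation markers were also highest in T0 replicate 3 among the T0 libraries and in replicate 4 (738 against 418 CPM) at T3, and their part in these values was not tested.

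Lmna, which encodes lamins A and C, had T0 levels of 28.9, 25.0 and 31.2 CPM and T1 levels of 20.6, 23.7 and 25.7 CPM. Its T2 libraries ranged from 23.3 to 28.1 CPM, its T3 libraries were at 19.3 and 35.7 CPM, and the groups overlapped throughout. Its log2 fold changes against T0 were -0.29 ± 0.15, -0.13 ± 0.13 and -0.03 ± 0.29 in time order (edgeR adjusted p = 0.17, 0.46 and 0.95). Per transcript length, Lmnb1 exceeded Lmna in all 12 libraries. The ratio of their FPKM was 12.7 ± 3.7 at T0 (SD, n = 3), 6.50 ± 0.95 at T1 (n = 3), 4.65 ± 0.72 at T2 (n = 4) and 8.30 and 6.54 at T3. T0 libraries were at 9.74, 11.5 and 16.9, above the highest later library. Counts of a whole gene do not split lamin A from lamin C.

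**Figure D2:**
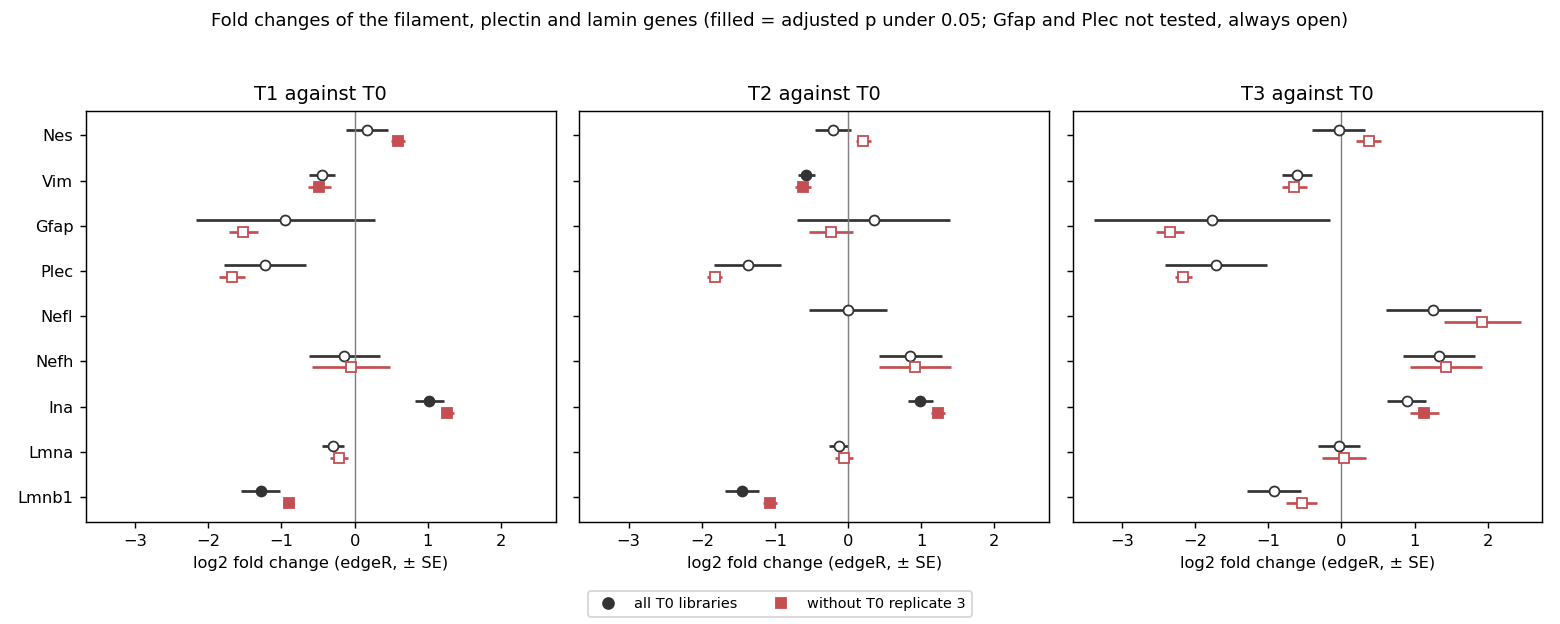
Points are log2 fold changes of T1, T2 and T3 against T0 and bars are ± 1 SE, with all T0 libraries (black circles) and without T0 replicate 3 (red squares). Ina lies right of 0 and Vim and Lmnb1 left of 0 in all panels with either set of T0 libraries, and the bars of Gfap shorten from 1.22 to 0.20 at T1 without replicate 3.

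Of the 6 genes tested at T1, 1 was lower (Lmnb1) and 1 higher (Ina), where 31.9% of all 12364 genes tested were called. Without T0 replicate 3 this became 2 lower (Vim, Lmnb1) and 2 higher (Nes, Ina), where 50.1% of all genes were called, and without T1 replicate 1, 2 or 3 it was 1 (Ina) each time. At T2, 2 of 7 were lower (Vim, Lmnb1) and 1 higher (Ina), where 43.3% of all genes were called, and without T0 replicate 3 these were 3 of 6 (52.1% of all genes). At T3, edgeR called 0 of 7, where 4.72% of all genes were called, and 1 (Ina) without T0 replicate 3, where 18.4% were. At an unadjusted p under 0.05 were 4 of the 7, beside 3350 of all 12721 genes tested. DESeq2 called 1 (Vim), limma on FPKM called 0, and 1 fit of all 12 libraries called 3 (Vim, Ina, Lmnb1). That single fit called 3865 of all genes, beside 600 in the main fit, and the numbers for the other methods are given below. Between T2 and T1, edgeR called 0 of 6, where 0.63% of all genes were called. At an unadjusted p under 0.05 was 1 of the 6, beside 1444 of all 12382 genes tested. The labels give no pairing of these libraries. Their deviations from the group means correlated at r of 0.19 to 0.40 for same-numbered libraries and -0.35 to 0.41 for others. With the replicate number as a block, 246 genes in place of 78 were called and still 0 of these 6. DESeq2 called 1 (Nes), where it called 304 of all genes, and limma 0. Between T3 and T2, edgeR called 0 of 7, where 1.19% of all genes were called, and DESeq2 and limma each called 0. At an unadjusted p under 0.05 in edgeR were 2 of the 7, beside 2144 of all 12599 genes tested. At T1 and T2 the shares called were close to those of all genes. Libraries did not overlap between groups for 3 of 6 tested genes at T1 against T0 (56.3% of all genes), 3 of 7 at T2 (54.2%), 4 of 7 at T3 (50%), 2 of 6 between T2 and T1 (12%) and 2 of 7 between T3 and T2 (25.6%). The 3 comparisons with T0 share their control libraries.

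To compare the filament genes with each other, each was expressed as a share of the summed FPKM of Nes, Vim, Gfap, Nefl, Nefm, Nefh and Ina. That sum was 2701 ± 275 FPKM at T0 (SD, n = 3), 2016 ± 372 at T1 (n = 3), 1700 ± 48 at T2 (n = 4) and 1544 and 1573 at T3. Vim gave 88.3% to 94.7% of it in each library, and no other filament gene took its place. Nes gave 3.37% and 4.58% in T0 replicates 1 and 2, 8.51% in replicate 3 and 6.17% to 8.83% at T1, T2 and T3. Gfap gave 1.50% and 1.89% in T0 replicates 1 and 2 and 0.0184% in replicate 3, then 0.724% to 1.04% at T1, 1.40% to 3.68% at T2 and, in the T3 libraries, 0.665% and 0.603%. Ina gave 0.461% to 0.834% at T0 and 1.30% to 2.00% later, with no overlap. The triplet together gave 0.00764% to 0.0611%, so Ina exceeded it by 32.8-fold to 173-fold in each library. These shares are levels of RNA and say nothing of the protein in the filaments.

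**Figure D3:**
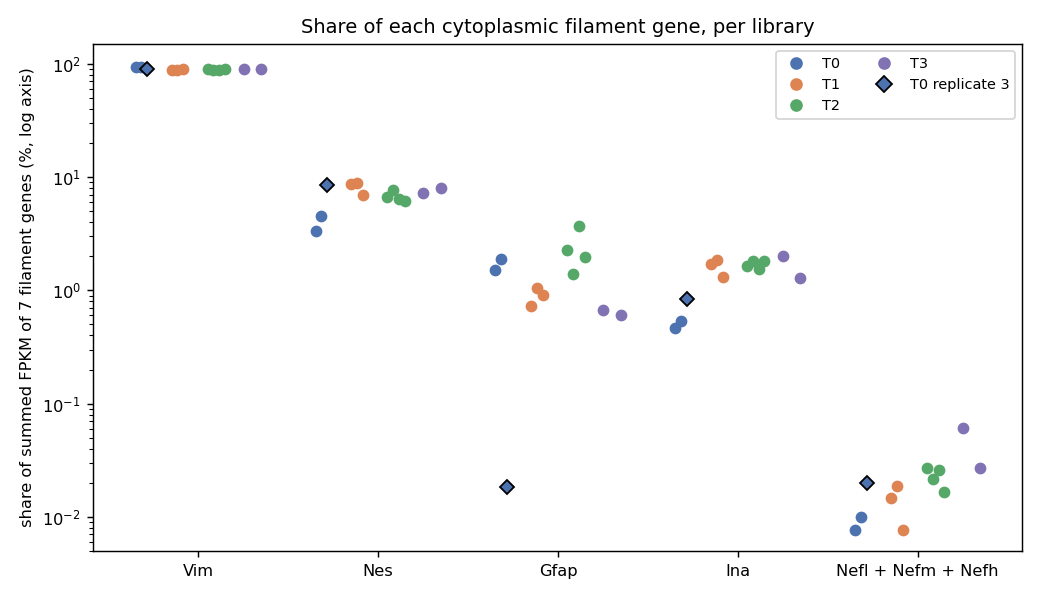
Each point is the share of 1 gene, or of the neurofilament triplet, in the summed FPKM of 7 filament genes in 1 library, in percent on a log axis. Vim stays at 88.3% to 94.7%, Ina lies higher in every later library than at T0, and T0 replicate 3 has a Gfap share of 0.0184%.

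Genes that work with these proteins were followed as 5 lists set by function. The lamina and nuclear envelope list showed more falls than rises. Of 21 genes tested, 5 fell and 1 rose at T1 and 9 fell and 2 rose at T2, where 16.8% and 21.8% of all genes were called lower. Its median log2 fold change was -0.23 at T1 and -0.32 at T2, beside -0.01 and 0.00 over all genes tested. Nrm, which encodes nurim of the inner nuclear membrane, was at 35.0 to 49.3 CPM at T0 and at 6.75 to 10.7 CPM at T2, a log2 fold change of -2.28 ± 0.20 (edgeR adjusted p = 0.00011). Tmpo, whose products bind lamins and chromatin, was at 343 to 549 CPM and at 111 to 157 CPM (-1.59 ± 0.20, adjusted p = 0.00047). Lmnb2, the other B-type lamin, was lower at both times (-0.98 ± 0.22 and -1.10 ± 0.18), as were Lbr, the lamin B receptor (-1.42 ± 0.26 and -1.54 ± 0.23), and Banf1, a chromatin-bridging factor (-1.10 ± 0.26 and -1.16 ± 0.22). Lemd2 and Lemd3, both LEM-domain proteins of the inner membrane, rose at T2, by 0.71 ± 0.13 (adjusted p = 0.0028) and 0.40 ± 0.11 (adjusted p = 0.016). Syne3 and Syne4 were not found by symbol. Without T0 replicate 3, the list had 8 lower and 2 higher at T1 and 9 lower and 2 higher at T2 (Syne2 among the lower in place of Zmpste24). There 50.1% and 52.1% of all genes were called in either direction, so the list's share in either direction was close to that of all genes. The falls alone were not compared with all genes without that library.

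Among 19 other intermediate filament genes, 6 had enough counts to be tested. At T1, Synm and Krt10 rose and 0 genes fell, and at T2, 4 rose (Synm, Sync, Iffo1 and Krt10) and 0 fell, where 15.1% and 21.4% of all genes were called higher. The median was 0.73 at T1 and 0.79 at T2. Synm, which encodes synemin, a partner of vimentin and desmin, went from 1.04 to 1.79 CPM at T0 to 2.31 to 3.09 CPM at T1, 3.56 to 6.22 CPM at T2 and 7.65 and 9.38 CPM at T3. Its log2 fold change was 1.01 ± 0.31, 1.83 ± 0.30 and 2.67 ± 0.37 (edgeR adjusted p = 0.043, 0.0020 and 0.025). Sync, which encodes syncoilin, rose by 1.16 ± 0.40 at T2 (adjusted p = 0.046). Prph, the peripherin gene, was at 34.4 and 30.3 CPM in T0 replicates 1 and 2, at 4.52 CPM in replicate 3 and at 5.24 to 15.4 CPM later. Its change of -1.55 ± 0.69 at T1 did not pass with all libraries (adjusted p = 0.12) and passed without replicate 3 (-2.02 ± 0.24, adjusted p = 0.00020). Without that library, 4 of the 6 rose and Prph fell at T1, and 5 rose and Prph fell at T2, where 50.1% and 52.1% of all genes were called. Keratins other than Krt10 reached at most 6 counts and Des 9 counts in any library.

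Plectin belongs to the plakins, cytolinkers that also include envoplakin and epiplakin, and some plakins anchor filaments at hemidesmosomes. Of 7 cytolinker and hemidesmosome genes tested, where 15.1% of all genes at T1 and 21.4% at T2 were called higher, Itga6 and Eppk1 rose at T1 (0.67 ± 0.10 and 1.37 ± 0.43, edgeR adjusted p = 0.0042 and 0.047), Evpl, which encodes envoplakin, rose at T2 (1.72 ± 0.37, adjusted p = 0.0064) and 0 fell at either time. The median was 0.67 at T1 and 0.38 at T2. Evpl was at 0.635 to 1.64 CPM at T0 and 2.83 to 5.01 CPM at T2, so it stayed a rare transcript. Without T0 replicate 3, Evpl, Itga6 and Itgb4 rose at both times and 0 of 7 fell, where 50.1% and 52.1% of all genes were called, and Eppk1 no longer passed at T1 (1.16 ± 0.44, adjusted p = 0.055). At T3 against T0 the 5 lists held 2 called genes, Synm and Cryab, where 4.72% of all genes were called, with 8 called without T0 replicate 3, where 18.4% were, and 0 without any other single library. Both shares of the lists were close to those of all genes. Between T2 and T1 and between T3 and T2 they held 0 in edgeR, with 8 and 12 at an unadjusted p under 0.05. Over all genes tested, 1444 of 12382 and 2144 of 12599 were under that unadjusted p. The counts of called list genes were 1 and 8 in DESeq2 and 0 and 0 in limma.

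**Figure D4:**
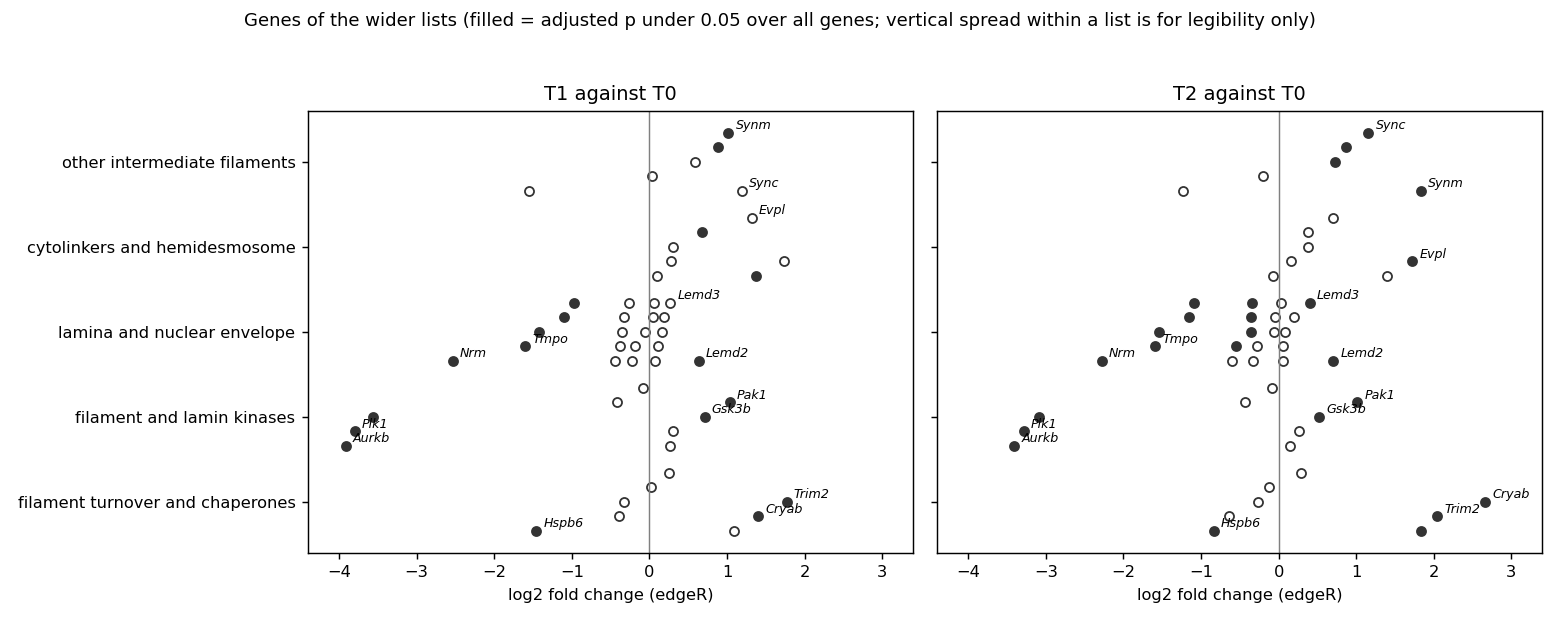
Each point is the log2 fold change of 1 gene against T0 at T1 (left) or T2 (right), filled where the adjusted p was under 0.05, in rows by list. In the lamina and nuclear envelope row 5 filled points at T1 and 9 at T2 lie left of 0, and in the kinase row Aurkb and Plk1 lie below -3.

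The genes whose levels ran most like each of these genes over the 12 libraries were taken from 11716 genes whose log2 CPM averaged 1 or more, by Pearson r of log2 CPM. The points share the time course and T0 replicate 3, so r describes these libraries and carries no p-value. Lmnb1 ran most like Kpnb1 (r = 0.99), the importin β gene, with Lman1 and Rcc2 next (both 0.99). Ina ran most like Tollip (0.98), Limk1 (0.97) and Mapre2 (0.97), Vim like Gamt (0.97), Slc2a1 (0.96) and P4ha1 (0.95), and Plec like Cdk19 (0.96), Slc24a6 (0.95) and Soat1 (0.95). Nes followed Eif4g2 (0.95), Anxa6 (0.92) and Phc2 (0.92), and Lmna followed Prr5l (0.93), Tnfrsf1a (0.90) and Yipf4 (0.88). Gfap ran most like Cldn2 (0.97), Slc14a1 (0.97) and Rab3il1 (0.96), which became 0.88, 0.93 and 0.84 without T0 replicate 3. Among the filament and lamin genes themselves, r was -0.83 between Vim and Ina, 0.70 between Vim and Lmnb1 and -0.81 between Nes and Gfap.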

How the data were processed

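RNAseq was carried out by the authors on 12 libraries of ANS cells, made with the TruSeq RNA kit v2 from total RNA and sequenced on a HiScanSQ. Reads were aligned to mm9 with TopHat2 2.0.6. HTSeq 0.6.0 is named in the submitters' processing notes. The strand setting is not given in the sources used here. The authors deposited a count per gene for each library, not normalized, with 5 entries that name no gene and were left out (reads on no gene were 13.3% to 24.1%). They also deposited FPKM values per gene, made with a tool not given in the sources used here. Samples were grouped by the time point in the labels.

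Counts were normalized by TMM (factors 0.931 to 1.04), filtered with filterByExpr and tested with the quasi-likelihood test of edgeR 4.0.16 in R 4.3.3, on the libraries of the 2 groups compared only, at a threshold of 0.05 after Benjamini-Hochberg adjustment over all genes tested. The same steps were tested on simulated counts. Alternatives used DESeq2 1.42.0, limma 3.58.1 on log2(FPKM + 1), RLE size factors, no filter, 1 fit of all libraries, a replicate block and each library left out. The members and lists were chosen with earlier results of these data known, so their p-values are not independent evidence. Named from each list were the called genes with the 2 largest falls and rises at T2, and all called genes where 5 or fewer were called. Prph was named after its values were seen. Same-numbered libraries deviated together for T2 and T1 (r of 0.19 to 0.40 in 3 pairs), but pairs with unlike numbers reached 0.41. Any pairing comes from the data, since the labels give no shared culture or day. Nothing in the labels says whether libraries of a group come from separate cultures, and the methods call them biological replicates.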

Additional observations from a re-analysis of the deposited data

How the results depend on the processing

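Over all alternatives, 0 fold changes of the filament and lamin genes tested reversed a call, 377 of 400 values kept their sign and 64 of 68 values of called genes stayed past the threshold. The 4 that did not were Lmnb1 at T1 without any 1 T1 library and Vim at T2 with the replicate block, and the cause was not tested. Numbers of called genes moved more, in the order of all genes, the filament and lamin genes tested, and the genes of the 5 lists. For T1 against T0 (3949, 2 and 18), 1 fit of all 12 libraries gave 28 list genes, and libraries numbered 1 and 2 only, an alternative chosen after seeing the data, gave 7462, 5 and 34. For T2 against T0 (5455, 3 and 25) the replicate block gave 3157 genes and 16 list genes. For T3 against T0 (600, 0 and 2) DESeq2 gave 2023, 1 and 10, no low-count filter 1165 genes and 4 list genes, 1 fit of all libraries 3865, 3 and 17, and limma 102 genes and 1 list gene. For T2 against T1 (78, 0 and 0) DESeq2 gave 304, 1 and 1, no filter 161 genes and 1 list gene, 1 fit 3 genes, the replicate block 246 genes and 1 list gene, and limma 5 genes. For T3 against T2 (150, 0 and 0) DESeq2 gave 760 genes and 8 list genes, no filter 719 and 7, 1 fit 42 and 1, the replicate block 14 genes and limma 12 genes. Leaving out each library in turn gave 1750 to 6290 genes, 1 to 4 filament and lamin genes and 10 to 27 list genes at T1 against T0, with 10 list genes without T1 replicate 2, 11 without T1 replicate 1 and the most without T0 replicate 3. It gave 4093 to 6606, 3 to 3 and 20 to 28 at T2 against T0, and 0 to 2317, 0 to 1 and 0 to 8 at T3 against T0, with 15 genes without T0 replicate 1 or 2, 2317 without T0 replicate 3, 0 without T3 replicate 1 and 1 without T3 replicate 4. It gave 9 to 68, 0 to 0 and 0 to 1 at T2 against T1, and 1 to 1347, 0 to 1 and 0 to 10 at T3 against T2 (1347 genes without T3 replicate 1, and 1 to 15 without a T2 library), where each T3 library left alone was assumed to vary like the other group. Same-numbered libraries correlated at -0.0078 to 0.13 between T1 and T0, -0.15 to 0.021 between T2 and T0 and -0.033 to 0.27 between T3 and T2, so there the block has only a shared number, and not every library ran best with its own number. By their labels T3 and T0 share 1 number, and they had no block. Nefl, Nefm and Nefh had at most 27 counts in a library, so their fold changes are imprecise.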

Other observations

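Kinases that phosphorylate filaments and lamins moved in both directions. Of 9 tested, the mitotic kinases Cdk1, Aurkb and Plk1 fell and Pak1 and Gsk3b rose at both T1 and T2, where 31.9% and 43.3% of all genes were called. Aurkb was at 116 to 219 CPM at T0, 6.20 to 15.3 CPM at T1, 9.41 to 19.7 CPM at T2 and 28.6 and 66.2 CPM at T3, with log2 fold changes of -3.91 ± 0.42 at T1 and -3.41 ± 0.31 at T2 (edgeR adjusted p = 0.0011 and 0.00013). Plk1 fell by 3.80 and 3.29, and by 3.19 and 2.66 without T0 replicate 3, where it was at 223 CPM against 87.6 and 81.1 CPM in the other T0 libraries. Pak1 rose from 28.0 to 43.7 CPM at T0 to 70.5 to 83.6 CPM at T1 (1.04 ± 0.18, adjusted p = 0.0073). Gsk3b rose by 0.71 ± 0.19 at T1 and 0.52 ± 0.18 at T2, and at T2 it no longer passed without T0 replicate 3 (0.38 ± 0.14, adjusted p = 0.051).

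Among 8 genes tested for filament turnover and chaperones, Trim2 and Cryab rose and Hspb6 fell at T1, and Capn1 rose in addition at T2, where 31.9% and 43.3% of all genes were called, so the shares were close to those of all genes. Capn1 rose at T1 too when T0 replicate 3 was left out (0.63 ± 0.19, edgeR adjusted p = 0.023). Cryab, which encodes the small heat shock protein αB-crystallin, a chaperone of GFAP and desmin filaments, was at 0.565 to 1.49 CPM at T0, 2.15 to 3.95 CPM at T1, 4.64 to 8.69 CPM at T2 and 10.1 and 20.4 CPM at T3. Its log2 fold change was 1.40 ± 0.42, 2.66 ± 0.38 and 3.76 ± 0.52 (edgeR adjusted p = 0.043, 0.00094 and 0.025). Trim2, a ubiquitin ligase of the neurofilament light chain, was at 2.47 to 7.92 CPM at T0 and 20.0 to 25.8 CPM at T2 (2.04 ± 0.34, adjusted p = 0.0021). Hspb6 fell by 1.46 at T1 and 0.84 at T2.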
